A study of Arabidopsis thaliana with 12 samples.

Results

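The genes described here encode the nuclear part of the photosynthetic light reactions and the small subunit of the enzyme that fixes carbon dioxide, in seedlings of Arabidopsis thaliana. They were listed by name and locus: 4 RBCS genes (Rubisco small subunits), 14 LHCB and 6 LHCA genes (antenna proteins of photosystems II and I), 12 nuclear genes of photosystem I subunits and 10 of photosystem II subunits, 46 of the 35651 genes counted. The group was chosen by its counts in the libraries titled h1.1h1.2, which had been seen to differ in such genes, so every comparison with those libraries is a description.

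RNA was taken from 14-day-old seedlings, each library from a single seedling, and 3 libraries carry each of 4 titles. The quadruple mutant h1.1h1.2cdca7acdca7b lacks the linker histones H1.1 and H1.2, which bind DNA between nucleosomes, through T-DNA alleles, and CDCA7A and CDCA7B, partners of the chromatin remodeler DDM1, through CRISPR alleles. The mutant h1.1h1.2 carries the T-DNA alleles alone, cdca7acdca7b the CRISPR alleles alone, and Col0 neither. All plants were of the Col-0 accession. The study's methods give 16 h of light and 8 h of dark for these seedlings, while the growth labels also name constant light for plants on plates.

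The names of the count tables contradict the titles for 9 of the 12 libraries. Libraries titled h1.1h1.2 have tables named cdca7acdca7b, those titled cdca7acdca7b have tables named Col0, and those titled Col0 have tables named h1.1h1.2. Both namings give the same 4 sets of 3, and the sets are called by title here. Transcripts of the targeted genes did not settle this. CDCA7A had 0 counts in each quadruple mutant library, 0, 0 and 5 in those titled h1.1h1.2, 3, 2 and 8 in those titled cdca7acdca7b, and 4, 2 and 10 in those titled Col0. H1.1 had 4, 6 and 5 counts in the quadruple mutant, 21, 1 and 0 in those titled h1.1h1.2, 0 in each of those titled cdca7acdca7b, and 3, 2 and 10 in those titled Col0. H1.2 had 7, 0 and 10 counts in the quadruple mutant, 16, 3 and 9 in those titled h1.1h1.2, 0, 1 and 2 in those titled cdca7acdca7b, and 1, 15 and 7 in those titled Col0. CDCA7B had 0 counts in 10 libraries, 1 in cdca7acdca7b replicate 2 and 7 in Col0 replicate 2. CDCA7A counts in all 3 libraries titled cdca7acdca7b went against their titles, as did H1.1 and H1.2 counts in those titled h1.1h1.2, with 21 of H1.1 in replicate 1. So did 0 CDCA7A counts in h1.1h1.2 replicates 1 and 2, where the title leaves CDCA7A intact. The 0 CDCA7B counts in all 3 libraries titled h1.1h1.2 did too, though CDCA7B had 0 counts in 10 libraries. The 0 H1.1 counts in each library titled cdca7acdca7b (table name Col0) went against both names, since neither carries the H1 alleles. Against the table names went H1.1 and H1.2 counts in those titled Col0 (table name h1.1h1.2). The 5 CDCA7A counts in h1.1h1.2 replicate 3 (table name cdca7acdca7b) did so too. H1.1 and H1.2 counts also occurred in the quadruple mutant, on which both namings agree. Such alleles need not remove a transcript, and the counts are few.

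Between 450869 and 833911 reads per library were counted on genes, 1.56 to 2.38% of the reads in each table. The share without a gene was 97.6 to 98.4%. Levels are given as CPM, the count relative to its library's size after scaling by edgeR's TMM factors. Intervals of shares and folds cover counting error at most and leave out the spread between seedlings. Reads made by PCR are not independent molecules, so the intervals may be too narrow even for counting error.

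Light-harvesting complexes are membrane proteins that hold chlorophyll and pass the energy of absorbed light to the reaction centres of the photosystems. Photosystem II takes electrons from water, photosystem I passes them on towards NADPH, and Rubisco uses the products to fix carbon dioxide. In flowering plants the antenna proteins and Rubisco small subunits are encoded in the nucleus by small gene families, their transcripts are among the most abundant of green leaves, and light raises them through promoter elements such as the G-box and the I-box.

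Several members sit in tandem as near copies, and the counts rested on reads with a single best position. The coding sequences of RBCS1B, RBCS2B and RBCS3B on chromosome 5 are each 546 bases long and differ pairwise at 15 to 18 bases. Those of LHCB1.1, LHCB1.2 and LHCB1.3 on chromosome 1 are 804 bases long and differ pairwise at 29 to 35 bases. The 60 bases with the most differences in each trio are shown, 5′ to 3′ on the coding strand of TAIR10.1, because they show what a read must cover to tell the copies apart. Capitals mark the bases at which the 3 copies are not all alike, 8 in each trio.
RBCS1B (chr5:15385006-15385065, minus strand): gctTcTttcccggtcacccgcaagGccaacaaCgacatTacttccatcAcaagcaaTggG
RBCS2B (chr5:15381829-15381888, minus strand): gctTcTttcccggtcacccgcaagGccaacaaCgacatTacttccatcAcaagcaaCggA
RBCS3B (chr5:15378157-15378216, minus strand): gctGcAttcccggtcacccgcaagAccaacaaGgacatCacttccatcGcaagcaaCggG
LHCB1.1 (chr1:10475809-10475868, minus strand): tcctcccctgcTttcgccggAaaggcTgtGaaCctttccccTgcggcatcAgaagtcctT
LHCB1.2 (chr1:10473163-10473222, minus strand): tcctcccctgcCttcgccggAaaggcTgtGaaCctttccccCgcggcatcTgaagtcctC
LHCB1.3 (chr1:10478095-10478154, plus strand): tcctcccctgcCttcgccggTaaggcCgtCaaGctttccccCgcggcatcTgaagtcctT
Of all stretches of 50 exonic bases, 70.5% in LHCB2.2, 76.5% in LHCB2.1 and 79.5% in LHCB1.1 occurred once in the genome. For 35 of the 46 genes every such stretch was unique, and for 37 with 100 bases. The 11 genes with repeated stretches of 50 bases were RBCS1B, RBCS2B, RBCS3B, LHCB1.1 to LHCB1.5, LHCB2.1, LHCB2.2 and LHCA2. Reads confined to such stretches have no single best position, so the levels of these genes and their sum are both uncertain.

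The promoters held light-regulatory letters in a minority of members. In the 250 bases before the outermost annotated start, the G-box CACGTG was found in 10 of 46 members (21.7%) and in 6.52% of 27071 protein-coding genes. The I-box GATAAG, on either strand, was found in 10 members (21.7%) and in 12.3% of all. The binding sequence of the clock protein CCA1, AAAAATCT on either strand, was found in 5 members (10.9%) and 6.71% of all, and TATAAA in 20 members (43.5%) and 47.6% of all. RBCS2B, LHCB6, PSAH2 and PSBQ2 held both a G-box and an I-box, as did 0.927% of all promoters. The windows of RBCS2B and PSBQ2, which overlap no other annotated gene, are shown with these 2 motifs in capitals (TAIR10.1), beside that of LHCB1.3, the most counted member, which held neither.
RBCS2B (chr5:15382072-15382321, minus strand): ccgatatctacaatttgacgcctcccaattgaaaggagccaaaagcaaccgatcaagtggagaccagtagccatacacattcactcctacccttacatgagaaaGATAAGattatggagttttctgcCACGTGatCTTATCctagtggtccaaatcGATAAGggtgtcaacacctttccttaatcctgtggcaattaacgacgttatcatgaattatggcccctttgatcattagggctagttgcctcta
PSBQ2 (chr4:2673244-2673493, minus strand): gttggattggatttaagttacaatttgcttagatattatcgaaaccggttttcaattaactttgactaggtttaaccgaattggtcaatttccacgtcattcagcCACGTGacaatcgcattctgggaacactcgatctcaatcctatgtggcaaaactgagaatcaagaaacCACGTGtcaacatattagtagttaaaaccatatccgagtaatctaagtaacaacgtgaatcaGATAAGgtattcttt
LHCB1.3 (chr1:10477635-10477884, plus strand): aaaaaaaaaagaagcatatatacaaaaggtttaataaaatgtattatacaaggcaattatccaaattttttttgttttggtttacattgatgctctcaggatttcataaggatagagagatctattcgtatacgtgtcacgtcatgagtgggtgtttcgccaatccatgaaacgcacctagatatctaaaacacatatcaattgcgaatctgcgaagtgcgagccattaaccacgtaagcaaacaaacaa
A match is a string of letters, not a measured binding site. The fold in the library that stood apart, described next, had a median of 54.0 over the 10 members with a G-box and 41.98 over the 36 without, with overlapping ranges of 7.26 to 87.8 and 3.03 to 144. For the other motifs the members with a match had the lower median, at 40.6 against 45.9 for the I-box, 25.8 against 46.7 for the CCA1 sequence and 41.98 against 47.5 for TATAAA.

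Together the 46 genes took 0.174, 0.110 and 0.168% of gene counts in the quadruple mutant libraries, 3.70, 0.111 and 0.738% in those titled h1.1h1.2, 0.116, 0.0970 and 0.123% in those titled cdca7acdca7b, and 0.129, 0.118 and 0.113% in those titled Col0. The Wilson 95% interval was 3.65 to 3.74% in h1.1h1.2 replicate 1 and 0.717 to 0.760% in replicate 3, above the intervals of the other 10 libraries. Replicate 2 of the same title, at 0.103 to 0.121%, lay among the libraries of the other sets. The set titled h1.1h1.2 therefore consisted of 1 library with very high values, 1 with intermediate values and 1 with low values, and its mean of 1.52 ± 1.91% (SD, n = 3) describes none of them. In bulk seedlings, a different share of green cells and a different amount of RNA per cell cannot be told apart. A list of 6 abundant housekeeping genes also rose in h1.1h1.2 replicates 1 and 3, by pooled folds of 48.9 and 6.03, as described further on. What set these libraries apart was not tested.

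**Figure D1:**
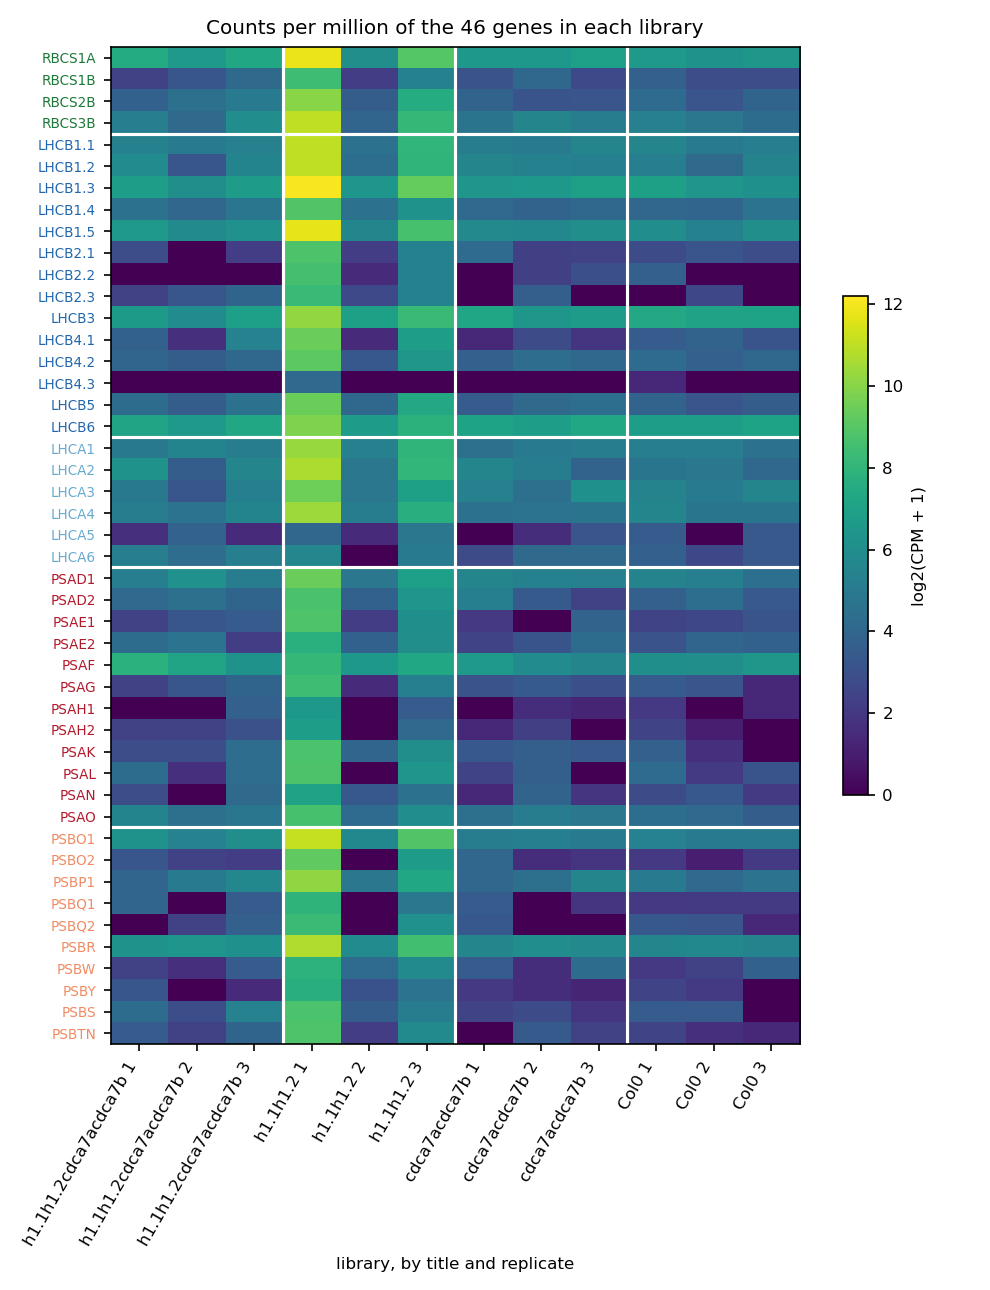
Each row is 1 of the 46 genes and each column 1 library, named by its title and replicate, and the colour gives log2(CPM + 1). Replicate 1 titled h1.1h1.2 is the brightest column, replicate 3 the next, and replicate 2 is far dimmer than both.

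All 46 genes were higher in h1.1h1.2 replicate 1 than in the 9 libraries of the other sets pooled, by a median of 43.8-fold. The ratios ran from 3.03 for LHCA6 to 144 for LHCB2.2, 41 of them above 10, and every 95% counting interval lay above 1. In replicate 3 the median was 6.29-fold and 45 intervals lay above 1, the exception being LHCB4.3, which had 0 counts there. In replicate 2 the median was 0.743, with 1 interval above 1 and 5 below. Among the 10539 genes with at least 10 pooled counts, the median fold in replicate 1 was 1.27 and 9.74% exceeded 10-fold, against 40 of the 45 members in that range. Replicate 1 had the highest CPM of all 12 libraries for 45 of 46 members, LHCA5 being the other, and for 37.9% of the 23140 genes with a count or 19% of those tested. Replicate 1 was first and replicate 3 second for 40 members and for 9.16% of those genes.

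The Rubisco small subunit genes, whose proteins assemble with the chloroplast-encoded large subunit, all followed this order. RBCS1A (AT1G67090, chr1:25048158-25049667, minus strand) had 183, 91.9 and 159 CPM in the quadruple mutant libraries, 3625, 64.6 and 513 CPM in those titled h1.1h1.2, 91.0, 89.1 and 118 CPM in those titled cdca7acdca7b, and 96.5, 74.3 and 87.4 CPM in those titled Col0. For RBCS1B (AT5G38430, chr5:15383167-15385320, minus strand), the quadruple mutant libraries held 4.26, 8.75 and 17.9 CPM, those titled h1.1h1.2 337, 3.69 and 39.5 CPM, those titled cdca7acdca7b 7.71, 15.8 and 5.47 CPM, and those titled Col0 12.3, 6.28 and 6.36 CPM. Both were highest in h1.1h1.2 replicate 1 and lowest of all 12 libraries in replicate 2, and the quadruple mutant overlapped both cdca7acdca7b and Col0. RBCS2B (AT5G38420, chr5:15380907-15382071, minus strand) stood at 12.8, 21.9 and 32.2 CPM in the quadruple mutant libraries, at 1062, 11.1 and 187 CPM in those titled h1.1h1.2, at 13.9, 7.92 and 8.21 CPM in those titled cdca7acdca7b, and at 18.4, 8.38 and 14.3 CPM in those titled Col0. RBCS3B (AT5G38410, chr5:15376988-15378642, minus strand) had 36.2, 17.5 and 62.6 CPM in the quadruple mutant libraries, 2099, 14.8 and 278 CPM in those titled h1.1h1.2, 24.7, 45.5 and 35.6 CPM in those titled cdca7acdca7b, and 38.3, 27.2 and 19.1 CPM in those titled Col0. In h1.1h1.2 replicate 1 these 4 genes were 34.1 to 72.6 times the pooled level of the 9 other libraries, with RBCS1A the least and RBCS2B the most raised. RBCS1A led the family per kilobase of exon, with 83.8 CPM per kilobase in the pooled 9 libraries against 4.80 to 23.8 for the others, and with 2859 against 178 to 1489 in replicate 1.

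The LHCB genes encode the antenna of photosystem II, in which LHCB1, LHCB2 and LHCB3 form the trimeric complex and LHCB4, LHCB5 and LHCB6 the monomeric links to the core. For LHCB1.3 (AT1G29930, chr1:10477885-10479114, plus strand), the quadruple mutant libraries held 111, 63.4 and 104 CPM, those titled h1.1h1.2 4384, 84.8 and 636 CPM, those titled cdca7acdca7b 80.2, 89.1 and 122 CPM, and those titled Col0 122.6, 81.7 and 68.3 CPM. LHCB1.5 (AT2G34420, chr2:14522524-14523568, minus strand) stood at 95.8, 56.9 and 71.5 CPM in the quadruple mutant libraries, at 3385, 48.0 and 403 CPM in those titled h1.1h1.2, at 52.4, 51.5 and 64.3 CPM in those titled cdca7acdca7b, and at 62.8, 39.8 and 63.6 CPM in those titled Col0. For both of these LHCB1 copies the quadruple mutant, cdca7acdca7b and Col0 libraries overlapped. LHCB3 (AT5G54270, chr5:22038165-22039568, plus strand) had 100, 59.1 and 116 CPM in the quadruple mutant libraries, 1181, 120 and 293 CPM in those titled h1.1h1.2, 148, 87.1 and 105 CPM in those titled cdca7acdca7b, and 162, 130 and 133 CPM in those titled Col0. LHCB3 was 9.88-fold up in h1.1h1.2 replicate 1, less than 12 of the other 13 LHCB genes, and its quadruple mutant libraries lay below all 3 titled Col0. LHCB6, a minor antenna protein picked here with its values known, was the least raised of the class at 7.26-fold. Per kilobase of exon, LHCB6 and LHCB3 had the highest levels of all 46 genes in the pooled 9 libraries, at 106 and 96.2 CPM per kilobase, but 772 and 951 in replicate 1, where LHCB1.3 reached 3564 and LHCB1.5 3239. LHCB6, LHCB3 and LHCB1.5 overlap highly counted genes on the opposite strand, described further on, so their levels are uncertain. LHCB2.2 had 0 counts in 6 of the 9 other libraries and 227 in replicate 1. LHCB4.3 had 1 count in all 9 and 10 in replicate 1, a ratio of 94.99 with a counting interval of 13.5 to 4122.

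The LHCA genes encode the antenna belt on one side of photosystem I. For LHCA2 (AT3G61470, chr3:22745514-22747444, plus strand), the quadruple mutant libraries held 74.5, 10.9 and 46.5 CPM, those titled h1.1h1.2 1655, 27.7 and 270 CPM, those titled cdca7acdca7b 47.8, 33.7 and 13.7 CPM, and those titled Col0 26.1, 27.2 and 15.9 CPM. LHCA4 (AT3G47470, chr3:17493343-17495033, minus strand) stood at 34.1, 24.1 and 44.7 CPM in the quadruple mutant libraries, at 1359, 35.0 and 205 CPM in those titled h1.1h1.2, at 23.1, 23.8 and 24.6 CPM in those titled cdca7acdca7b, and at 47.5, 26.2 and 25.4 CPM in those titled Col0. LHCA1 (AT3G54890, chr3:20339504-20341176, minus strand) had 29.8, 43.8 and 34.0 CPM in the quadruple mutant libraries, 1269, 38.7 and 252 CPM in those titled h1.1h1.2, 21.6, 31.7 and 34.2 CPM in those titled cdca7acdca7b, and 36.8, 36.6 and 22.2 CPM in those titled Col0. Apart from h1.1h1.2 replicates 1 and 3, the sets overlapped for LHCA2 and LHCA1, and for LHCA4 the libraries titled cdca7acdca7b lay just below those titled Col0. In h1.1h1.2 replicate 1 these were 39.3 to 52.4 times, and LHCA3 19.4 times, the pooled level of the 9 libraries. The minor genes LHCA5 and LHCA6 were 3.05 and 3.03 times it. LHCA5 had 9 counts in replicate 1 and 18 in replicate 3, and 0 to 7 elsewhere. LHCA6 had 36.2, 19.7 and 35.8 CPM in the quadruple mutant libraries, 49.1, 0 and 30.4 CPM in those titled h1.1h1.2, 6.17, 17.8 and 17.8 CPM in those titled cdca7acdca7b, and 12.3, 5.23 and 9.53 CPM in those titled Col0. Its quadruple mutant libraries thus lay above all those titled cdca7acdca7b and Col0.

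Photosystem I subunits had the lowest summed fold of the 5 classes in h1.1h1.2 replicate 1, at 17.8, although their median fold of 33.7 was above the 29.4 of LHCA. For PSAF (AT1G31330, chr1:11214676-11216141, minus strand), the quadruple mutant libraries held 217, 140 and 76.9 CPM, those titled h1.1h1.2 276, 88.5 and 159 CPM, those titled cdca7acdca7b 95.6, 57.4 and 45.1 CPM, and those titled Col0 67.4, 64.9 and 87.4 CPM. PSAF, a subunit at the plastocyanin docking side, was the exception in level and fold: it was only 3.13-fold up in h1.1h1.2 replicate 1, and quadruple mutant replicates 1 and 2 were above all libraries titled cdca7acdca7b or Col0. PSAD1 (AT4G02770, chr4:1229031-1230164, minus strand) stood at 36.2, 72.2 and 34.0 CPM in the quadruple mutant libraries, at 688, 27.7 and 117 CPM in those titled h1.1h1.2, at 46.3, 39.6 and 38.3 CPM in those titled cdca7acdca7b, and at 42.9, 37.7 and 20.7 CPM in those titled Col0. PSAO (AT1G08380, chr1:2640803-2641934, minus strand) had 44.7, 21.9 and 26.8 CPM in the quadruple mutant libraries, 400, 18.4 and 62.3 CPM in those titled h1.1h1.2, 21.6, 33.7 and 27.4 CPM in those titled cdca7acdca7b, and 19.9, 16.8 and 11.1 CPM in those titled Col0. PSAD1 encodes a stromal subunit at the ferredoxin docking side and PSAO a small subunit next to the antenna. The quadruple mutant overlapped cdca7acdca7b for both, and for PSAO its 3 libraries lay above those titled Col0. The 12 genes ran from 3.13-fold for PSAF to 68.5-fold for PSAE1 in replicate 1, with 11 above 10-fold.

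Photosystem II subunits had the highest summed fold in h1.1h1.2 replicate 1, at 45.4, with a median of 51.2 below the 55.8 of LHCB, and ran from 29.3-fold for PSBW to 128-fold for PSBO2. For PSBO1 (AT5G66570, chr5:26568572-26570461, plus strand), the quadruple mutant libraries held 74.5, 41.6 and 64.4 CPM, those titled h1.1h1.2 2261, 51.6 and 469 CPM, those titled cdca7acdca7b 35.5, 37.6 and 32.8 CPM, and those titled Col0 41.4, 31.4 and 30.2 CPM. PSBP1 (AT1G06680, chr1:2047634-2049439, plus strand) stood at 14.9, 30.6 and 50.1 CPM in the quadruple mutant libraries, at 1169, 27.7 and 156 CPM in those titled h1.1h1.2, at 15.4, 21.8 and 47.9 CPM in those titled cdca7acdca7b, and at 30.6, 16.8 and 23.8 CPM in those titled Col0. PSBO1 and PSBP1 encode proteins of the oxygen-evolving complex on the lumen side, and the 3 quadruple mutant libraries of PSBO1 lay above all those titled cdca7acdca7b or Col0, with no call by the test described further on. PSBR (AT1G79040, chr1:29735952-29737009, plus strand) had 72.4, 83.1 and 67.9 CPM in the quadruple mutant libraries, 1689, 59.0 and 358 CPM in those titled h1.1h1.2, 47.8, 61.4 and 53.4 CPM in those titled cdca7acdca7b, and 47.5, 50.3 and 42.9 CPM in those titled Col0. The same held for PSBR, a small membrane-bound subunit. PSBS, the sensor of energy-dependent quenching, was 40.2-fold up in replicate 1 and 3.26-fold in replicate 3.

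The mix of classes differed between libraries as well as their sum. Summed by class, h1.1h1.2 replicate 1 exceeded the pooled 9 libraries 45.4-fold for photosystem II, 43.6-fold for RBCS, 33.2-fold for LHCA, 32.2-fold for LHCB and 17.8-fold for photosystem I. Photosystem I genes held 9.63% of member counts in replicate 1 and 11.8% in replicate 3, but 18.1% in replicate 2 and 13.3 to 27.9% in the 9 other libraries. Among the quadruple mutant libraries the LHCB genes held 37.2, 32.8 and 39.6% of member counts, against 45.6, 43.4 and 47.1% in those titled cdca7acdca7b and 46.7, 45.998 and 50.3% in those titled Col0, without overlap. Photosystem II genes held 13.6, 15.9 and 16.6% in the quadruple mutant, 12.6, 12.7 and 13.2% in those titled cdca7acdca7b, and 11.9, 12.7 and 10.997% in those titled Col0, again without overlap. RBCS genes held 12.6 to 16.3% in the quadruple mutant, overlapping those titled cdca7acdca7b (11.3 to 14.2%) but not Col0 (11.2 to 12.4%). LHCA genes, at 10.8 to 12.4%, overlapped both those titled cdca7acdca7b (11.3 to 13.2%) and Col0 (11.9 to 13.2%). So did photosystem I genes, at 15.5 to 27.9% against 13.3 to 19.2% and 15.1 to 17.7%. The shares of a library depend on each other, and how often such small sets separate by chance was not tested. The shares of these sets come from 509 to 987 member counts per library and were not tested.

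**Figure D2:**
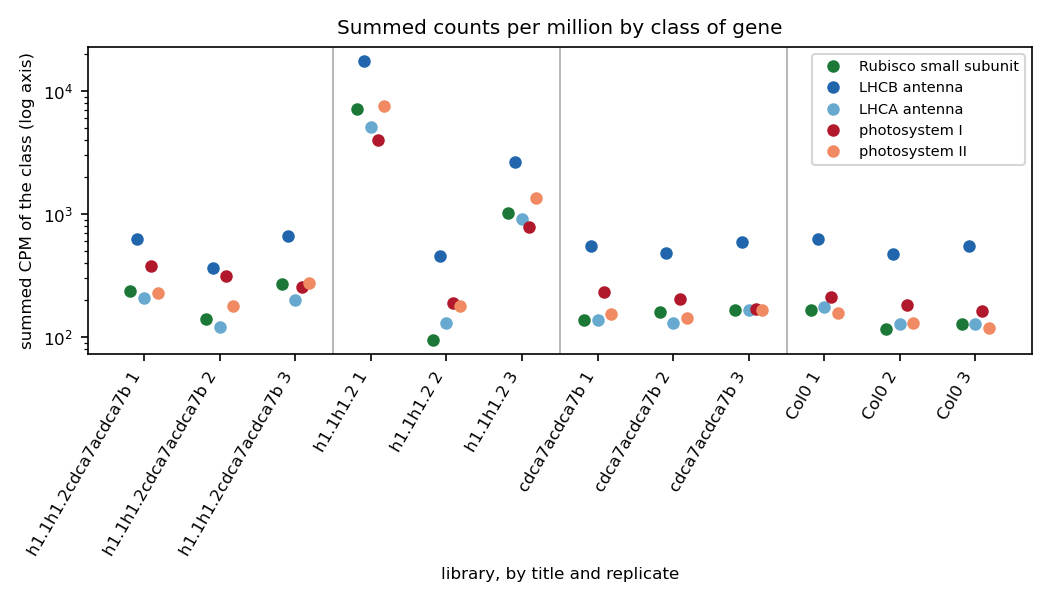
Summed CPM of each class of gene in each library, on a log axis, with libraries named by title and replicate. The LHCB genes lead in every library, photosystem I is the lowest class in h1.1h1.2 replicates 1 and 3, and h1.1h1.2 replicate 2 lies within the range of the 9 libraries of the other sets for every class but RBCS, where it is below them (94.1 against 116 to 272 CPM).

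The order of the members was largely kept between the 2 high libraries. Across the 46 genes, counts in h1.1h1.2 replicates 1 and 3 had a Spearman rho of 0.93, and those of replicate 1 and the 9 pooled libraries 0.75. This is a description across genes, which share libraries and are not replicates. The ratio of CPM in replicate 1 to replicate 3 had a median of 6.36 and quartiles of 4.88 and 7.96.

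**Figure D3:**
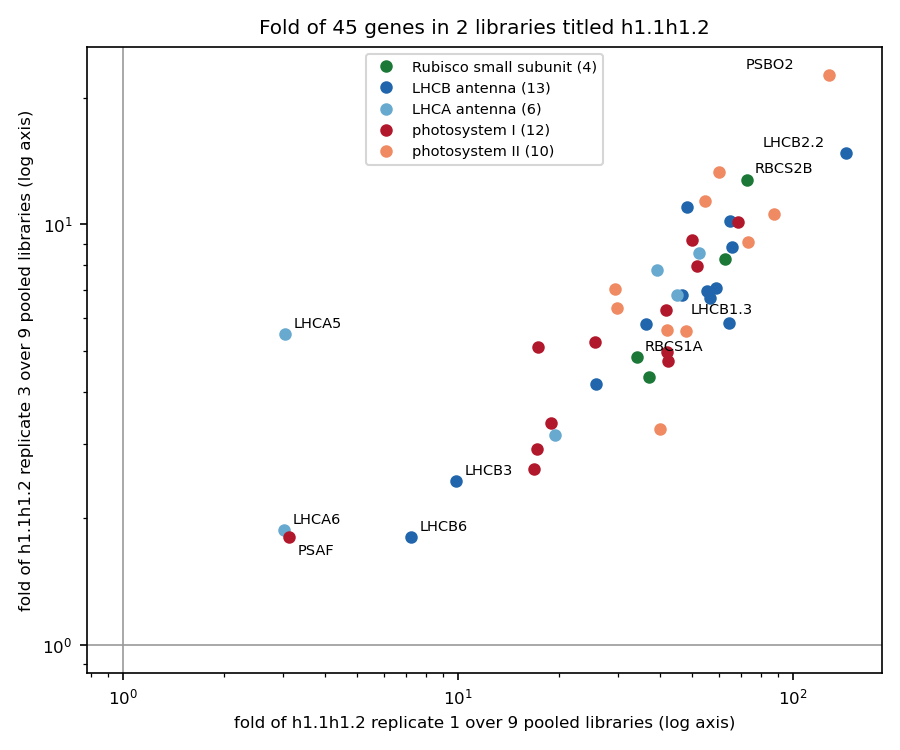
Each point is a gene, with its fold over the 9 pooled libraries in h1.1h1.2 replicate 1 on the x axis and in replicate 3 on the y axis, both log, coloured by class. LHCA5 is the only gene with a higher fold in replicate 3 (5.48) than in replicate 1 (3.05), and LHCB4.3, with 0 counts in replicate 3, is left out.

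The 6 pairs of sets were tested with edgeR's quasi-likelihood test in 1 fit of all libraries, with Benjamini-Hochberg adjustment over the 4461 genes left by a filter on low counts. Genes were called at an adjusted p under 0.05 with a log2 fold change of 1 or more in size. The filter kept 33 members: all 4 RBCS, 11 LHCB, 5 LHCA, 8 photosystem I and 5 photosystem II genes. The 13 that it removed were LHCB2.2, LHCB2.3, LHCB4.3, LHCA5, PSAE1, PSAG, PSAH1, PSAH2, PSBO2, PSBQ1, PSBQ2, PSBY and PSBTN. With the libraries titled h1.1h1.2 left out, 26 members passed it, so some passed through their high libraries.

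No member was called in the 3 comparisons of sets other than h1.1h1.2, although those libraries still entered the filter and the shared estimate of spread. In the quadruple mutant against cdca7acdca7b, 0 members were called (0.426% of all genes were, 0.381% higher and 0.0448% lower), 1 was higher at an unadjusted p under 0.05 (5.20% of all genes were), and DESeq2 called 0. The members had a median log2 fold change of 0.19, all genes 0.04, and 25 of the 33 members were positive. In the quadruple mutant against Col0, 0 members were called (0.0448% of all genes were, all higher), 1 was higher at an unadjusted p under 0.05 (2.78% of all genes were), and DESeq2 called 0. The median was 0.44 for members and 0.02 for all genes, and 27 of the 33 members were positive. In cdca7acdca7b against Col0, 0 members were called (0.426% of all genes were, 0.0448% higher and 0.381% lower), 0 passed an unadjusted p under 0.05 (2.82% of all genes were higher and 4.73% lower), DESeq2 called 0, and the median was 0.12 for members and -0.01 for all genes. With all 3 libraries titled h1.1h1.2 left out, an alternative chosen after seeing the data, 26 members were tested and edgeR again called 0 in each. At an unadjusted p under 0.05 there were then 2 (PSAF and PSBO1) in the quadruple mutant against cdca7acdca7b, 5 (RBCS1A, LHCA6, PSAF, PSBO1 and PSBR) against Col0, and 0 in cdca7acdca7b against Col0, and the medians over the members were 0.25, 0.47 and 0.13. The share of all genes at that p was not computed for this fit, so nothing is read from these counts. By table names the 3 comparisons are the quadruple mutant against Col0, the quadruple mutant against h1.1h1.2, and Col0 against h1.1h1.2.

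In the fit of all 12 libraries, PSAF was the member with an unadjusted p under 0.05 in both comparisons of the quadruple mutant. Its CPM averaged 145 ± 70.3 in the quadruple mutant, 66.1 ± 26.3 in those titled cdca7acdca7b and 73.2 ± 12.3 in those titled Col0 (SD, n = 3 each). The log2 fold change was 1.12 ± 0.44 (SE) against cdca7acdca7b, with an edgeR adjusted p of 0.433, and 0.98 ± 0.43 against Col0, with an edgeR adjusted p of 0.924. Quadruple mutant replicate 3, at 76.9 CPM, lay within the range of the libraries of both other titles, and PSAF was called in neither comparison. LHCA6, PSBO1, PSBR and PSBS had all quadruple mutant libraries above all titled cdca7acdca7b, 4 of the 33 members tested, and 8.41% of all genes tested did, and 0 lay below, as 6.37% of all genes did. LHCA6, PSAO, PSBO1 and PSBR did so against Col0, where 6.16% of all genes did, and LHCB3 lay below, as 5.96% of all genes did. In cdca7acdca7b against Col0, PSAO lay above, as 7.15% of all genes did, and LHCB4.1 and LHCA4 below, as 8.52% did. None of these was called.

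The median SE of a member's log2 fold change was 0.96 against cdca7acdca7b and 0.99 against Col0 in the quadruple mutant, and 0.96 in cdca7acdca7b against Col0. These widths include the spread within h1.1h1.2, a set outside these comparisons. With its libraries left out the median SE was 0.48 in each of the 3, but over the 26 members that then passed the filter instead of 33. The change in width therefore mixes the loss of that spread with a change of genes.

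The comparisons with the libraries titled h1.1h1.2 describe the pattern by which the genes were chosen, and nothing is read from their counts. Against cdca7acdca7b, 18 of 33 members were called higher (2.02% of all genes were) and 0 lower (0.157% were), 2.17% in either direction, with a median log2 fold change of 3.96 for members and 0.05 for all genes. Against Col0, 25 were called higher (2.82% of all genes were) and 0 lower (1.12% were), 3.95% in either direction, with medians of 4.01 and 0.03. These 2 comparisons share the h1.1h1.2 libraries. In the quadruple mutant against h1.1h1.2, 0 members were called (0.336% of all genes were, 0.157% higher and 0.179% lower), with a median of -3.80 for members and -0.04 for all genes, 31 were lower at an unadjusted p under 0.05 (7.35% of all genes were), and DESeq2 called 28 lower, among 135 of all genes. The 3 libraries of each set did not overlap for 6 members higher in h1.1h1.2 than in cdca7acdca7b (9.26% of all genes) and 9 higher than in Col0 (9.95%). In the quadruple mutant 2 members, LHCB3 and PSBW, lay below all libraries titled h1.1h1.2 (6.34% of all genes) and 0 above (7.53%). By class, the calls against Col0 were 4 of 4 RBCS, 9 of 11 LHCB, 3 of 5 LHCA, 4 of 8 photosystem I and 5 of 5 photosystem II genes.

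**Figure D4:**
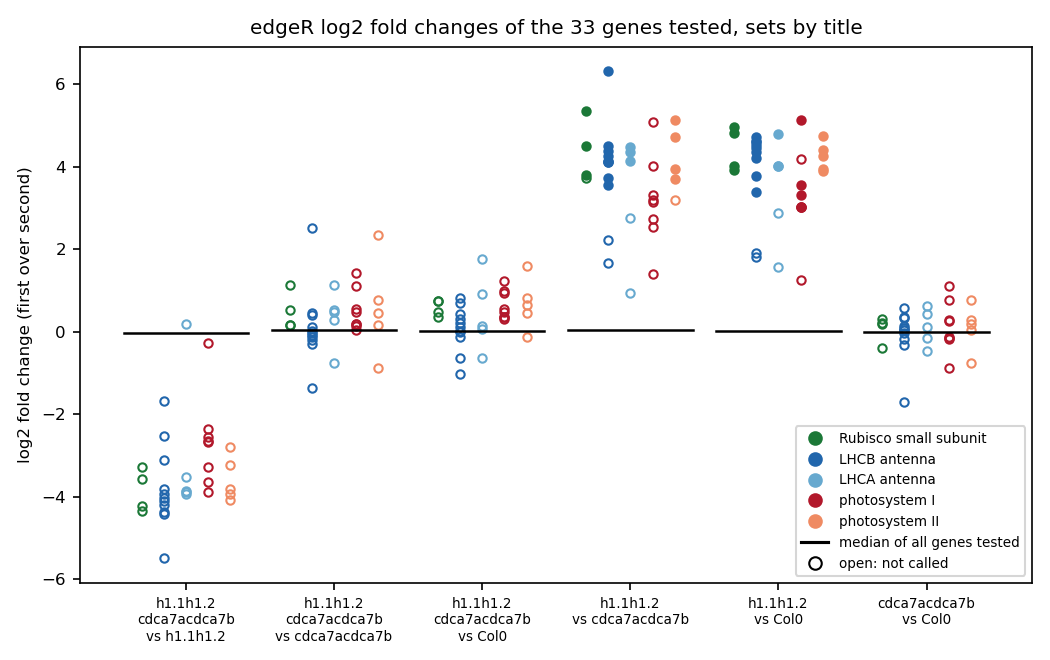
Log2 fold change (first set over second, sets by title) of the 33 tested members in each of the 6 comparisons, by class, with filled points for called genes, open points for others, and a black line at the median of all genes tested. Members lie around the median of all genes in the 3 comparisons without h1.1h1.2, and nearly all lie far from it in the 3 with it, LHCA6 and PSAF being nearest in the quadruple mutant against h1.1h1.2.

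The spread within h1.1h1.2 was wide in all of these. Among the genes named, PSBO1 had the smallest adjusted p against Col0, with a log2 fold change against Col0 of 4.75 ± 0.87 (SE) and an edgeR adjusted p of 0.0122, and its 3 libraries titled h1.1h1.2 held 2261, 51.6 and 469 CPM, against 41.4, 31.4 and 30.2 CPM in those titled Col0. RBCS1A had 4.03 ± 0.90 (SE), with an edgeR adjusted p of 0.0233, although h1.1h1.2 replicate 2, at 64.6 CPM, was below all 3 libraries titled Col0. The 25 calls against Col0 were 3 without h1.1h1.2 replicate 1, 43 without replicate 2 and 26 without replicate 3. With the 6 libraries of the 2 sets fitted alone, 0 were called, and without any 1 of the 3 libraries titled Col0 0 were called too. The 18 calls against cdca7acdca7b were 1 without h1.1h1.2 replicate 1, 42 without replicate 2, 21 without replicate 3, 0 without any 1 of the libraries titled cdca7acdca7b, and 0, 0 and 1 without Col0 replicates 1, 2 and 3. Without quadruple mutant replicates 1, 2 and 3, which share the fit, they were 1, 1 and 9. With both high libraries left out, chosen after seeing the data, RBCS1A had a log2 fold change of -0.41 against Col0, a description only, since the 1 library that remained is assumed to vary like the other sets. In these fits with 1 library left out, 33 members were tested without h1.1h1.2 replicate 1 or 3 and 43 otherwise. The share of all genes called in these fits, and in the fits of 6 libraries, is not given here. Nothing is therefore read from these member counts. By table names, the 25 calls belong to cdca7acdca7b against h1.1h1.2 and the 18 to cdca7acdca7b against Col0.

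The rise in h1.1h1.2 replicate 1 was not confined to photosynthesis genes. A list of 6 abundant housekeeping genes (ACT2, ACT7, UBQ10, EF1A, GAPC1 and GAPC2) had 1091 counts in replicate 1, 25 in replicate 2 and 150 in replicate 3, against 14 to 33 in each of the 9 other libraries, a pooled fold of 48.9 in replicate 1 and 6.03 in replicate 3. Their part in the result for the members was not tested. The number of genes with at least 1 count was 17286, 10449 and 13676 in h1.1h1.2 replicates 1, 2 and 3, and 9813 to 12585 in the 9 others, and 2.38, 1.67 and 2.07% of reads were counted on genes, against 1.56 to 1.92%. The 8 root markers moved little, with pooled folds of 1.06, 1.26 and 0.868, and 3 of them (PLT1, COBL9 and EXPA7) had at most 2 counts over all libraries and NRT2.1 none. Summed, they ran from 31.9 to 46.1 CPM in the libraries titled h1.1h1.2 and from 19.2 to 55.2 CPM in the 9 others.

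Other photosynthesis genes moved to different extents in the same library. Stromal enzymes of the leaf (RCA, CA1, SBPASE, GAPA1, GAPA2 and GAPB) had pooled folds of 30.9, 1.13 and 5.77 in h1.1h1.2 replicates 1, 2 and 3. For RCA, which encodes Rubisco activase, the counts were 65, 27 and 92 in the quadruple mutant libraries, 1758, 28 and 288 in those titled h1.1h1.2, 79, 47 and 58 in those titled cdca7acdca7b, and 29, 27 and 33 in those titled Col0. The 14 genes of electron transport and ATP synthase had pooled folds of 11.8, 1.04 and 2.96, the 23 of chlorophyll synthesis 5.49, 1.103 and 1.81, and the 16 light and plastid regulators 7.17, 0.958 and 1.42. The 21 LHC-like, assembly and state transition genes had 2.23, 1.012 and 1.23. Of these 5 lists, members called in 1 or both comparisons of h1.1h1.2 with cdca7acdca7b and Col0, all of them higher, were PETE2 (plastocyanin), FNR2 (ferredoxin-NADP reductase), CHLH, CHLP and CRD1 (chlorophyll synthesis), PSBX, CPSRP54 (signal recognition particle of the chloroplast), GAPA1, GAPA2, GAPB, RCA and CA1. Against cdca7acdca7b and Col0 these were 4 and 5 of the 5 stromal genes tested, 1 and 2 of the 7 of electron transport, 1 and 3 of the 11 of chlorophyll synthesis, 2 and 0 of the 11 LHC-like genes, and 0 of the 2 regulators in both. Of the housekeeping genes, GAPC2 and EF1A were called against Col0. Of all genes tested, 2.02% were called higher against cdca7acdca7b and 2.82% against Col0. The filter also used the libraries titled h1.1h1.2, so some genes of these lists may have passed it through their high counts there. GAPA2 had 159, 10 and 52 counts in those libraries and 0 to 9 elsewhere. Nothing is therefore read from the number of calls in these lists. In the comparisons without h1.1h1.2, no gene of these lists was called by edgeR.

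**Figure D5:**
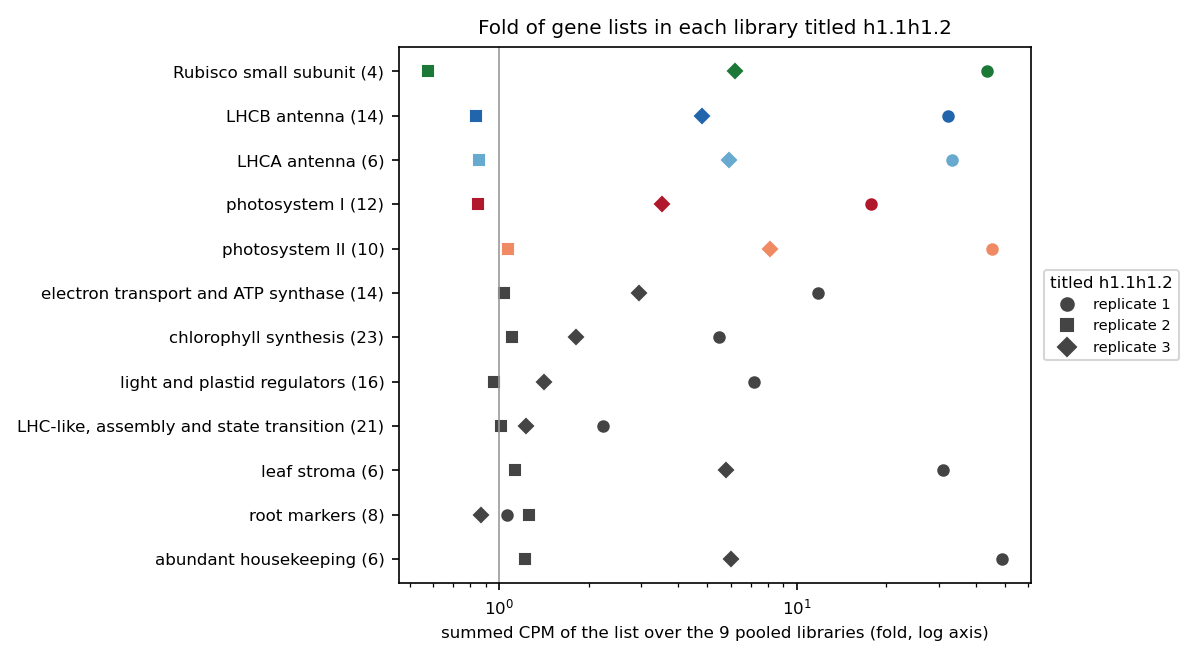
Summed CPM of each gene list in each of the 3 libraries titled h1.1h1.2, as a fold of the 9 pooled libraries of the other sets, on a log axis, with the number of genes in brackets. Replicate 1 lies at 17.8 to 45.4 for the 5 classes of members and at 48.9 for abundant housekeeping genes, and replicate 2 lies at 0.575 (RBCS) to 1.26 (root markers).

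Genes on the opposite strand were a further feature of the members' counts. In TAIR10.1, exons of 16 members overlap those of a gene on the other strand, and for 15 of them 1 such partner was in the tables. The kit marks strand, but the strand option of the counting is not given in the sources used here. The partners of 4 members were among the 24 most counted of all genes. ROPGEF13, which shares 693 exonic bases with PSAH1, had 7100 to 14138 counts per library and the sixth highest total, whereas PSAH1 had 53 counts in h1.1h1.2 replicate 1 and 0 to 7 elsewhere. ATM2, with 186 bases of overlap with LHCB3, had 5595 to 13745, and RWA3, with 99 bases of overlap with LHCB1.5, 3672 to 15047. AT1G15810, with 103 bases of overlap with LHCB6, had 1646 to 4139.
In h1.1h1.2 replicate 1 these 4 partners were at 0.872 (ROPGEF13), 0.988 (ATM2), 1.06 (RWA3) and 1.16 (AT1G15810) times the pooled level of the 9 libraries. The 15 partners ran from 0.745 to 13.6 times it, with a median of 1.16. The 5 above 2 times were NRPA2, AT1G06690, AT3G27700, AT4G28740 and RECA1, with 23 to 93 counts each over all libraries. Over all 15 pairs the partners held 388827 counts and the members 14626, and the partner had more than the member in 9. Across the genome, 23.7% of protein-coding genes have such an exonic overlap, and they held 61.9 to 77.5% of protein-coding counts per library. The members with a partner had a median fold of 41.8 in replicate 1 and the 31 others a median of 49.96. Whether reads of the members were counted on their partners was not tested, and the levels of these 16 members are uncertain for that reason. The levels of the other members are uncertain too, since the strand option is not known and 1.56 to 2.38% of reads were counted on genes. How the strand option bears on any member's level or fold was not tested.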

How the data were processed

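RNA-seq of 12 single seedlings was analysed from gene counts. The authors trimmed reads with Trim Galore 0.6.7, aligned left reads to TAIR10 with STAR 2.7.11a, keeping unique alignments with under 5% mismatches, and deposited raw counts per gene made with HTSeq 0.13.5. The strand option and annotation release are not given in the sources used here. The 5 summary lines of each table were left out of library sizes, and 12 tables of transposable elements were not used. Members and gene lists were chosen with earlier results of these data known. Genes named with values are the 4 RBCS genes and the 3 most counted of each other class, and others were chosen after their values were seen. Counts were tested in edgeR 4.0.16 (R 4.3.3) by the quasi-likelihood test with TMM scaling over all 12 libraries. DESeq2 1.42.0, other filters, a replicate block, left-out libraries and the table names were alternatives. The test was run on simulated counts with 1 spread shared by all genes, so with no set as uneven as h1.1h1.2. Per comparison it recovered 61 to 80 of 100 4-fold changes and 90 to 96 of 100 8-fold changes, with 5 to 17 false calls. How it performs on a set like h1.1h1.2 was not tested. Each library is 1 seedling, so p-values measure the spread between these seedlings. Annotation and sequences are from RefSeq TAIR10.1, which held all 46 members.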

Additional observations from a re-analysis of the deposited data

How the results depend on the processing

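Of 490 alternative values, 356 were rated the same as the main value, and 9 reversed. For log2 fold changes, the same meant an unchanged direction and side of the threshold. For members called it meant a similar number, and for shares a mean within the SD of the main value. The cause of the changes was not tested. Of all 35651 genes, DESeq2 called 0.0757% higher and 0.379% lower in the quadruple mutant against h1.1h1.2. In h1.1h1.2 against cdca7acdca7b it called 0.861% higher and 0.0421% lower. For fits without a filter, with fewer libraries or with a replicate block, the share of all genes is not given here. Nothing is therefore read from their member counts. For the quadruple mutant against h1.1h1.2 (0 members called), DESeq2 gave 28 and no filter 39, and leaving out 1 library gave 0 to 40. Against cdca7acdca7b (0 called), no filter gave 1. For h1.1h1.2 against cdca7acdca7b (18 called), DESeq2 gave 33, no filter 42, the 6 libraries alone 0, h1.1h1.2 replicates 1 and 3 left out 0, and leaving out 1 library 0 to 42, and with the genotypes of the table names 25 were called in the other direction. For h1.1h1.2 against Col0 (25 called), no filter gave 42, the 6 libraries alone 0, replicates 1 and 3 left out 0, the table names 0, and leaving out 1 library 0 to 43. The filter goes by the smallest set, and 43 members were tested instead of 33 without any 1 library other than h1.1h1.2 replicates 1 and 3. For cdca7acdca7b against Col0 (0 called), the table names gave 18. With a replicate block the calls were 3 against cdca7acdca7b and 14 against Col0 for h1.1h1.2. Same-numbered libraries showed little shared deviation, with 18 correlations of -0.148 to 0.161. With 3 libraries per set these cannot show whether a batch was shared, and the main test did not pair the libraries.

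Without h1.1h1.2 replicates 1 and 3, chosen after seeing the data, the log2 fold change against Col0 was -0.41 for RBCS1A, -1.12 for RBCS1B, -0.28 for RBCS2B, -0.92 for RBCS3B, -0.10 for LHCB1.3, -0.19 for LHCB1.5, -0.24 for LHCB3 and -0.29 for PSAD1, and positive at 0.09 to 0.59 for the 8 other named genes, LHCA4 lowest and PSBO1 highest. The 1 library left is assumed to vary like the other sets. Without RBCS1B, RBCS2B, RBCS3B and the LHCB1 genes, the members' share of gene counts was 0.0839% in libraries titled cdca7acdca7b and 0.0904% in those titled Col0. Leaving out 1 library moved the mean share of h1.1h1.2 between 0.425 and 2.22%. With 509 to 987 member counts in each of the 9 other libraries, the depth limits what can be said of single genes.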
